A study of Oryctolagus cuniculus with 8 samples.

Results

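The retina of the adult rabbit carries genes whose levels differ between its upper (dorsal) and lower (ventral) side, and 10 of them are described here across 8 retinas from rabbits on 4 diets. The 8 dorsal genes were TBX5, TBX3, TBX2, NR2F2, EFNB1, EFNB2, BMP2 and BMP4, and the 2 ventral genes were VAX2 and EPHB2. In the 4 retinas from diets with added sucrose, TBX5 was represented by 1 to 32 fragments per library, and the mean levels of NR2F2 and EFNB2 were 5.77 and 5.06 times lower than in the 4 retinas from diets without it. TBX3, TBX2 and EFNB1 were lower by smaller amounts, EPHB2 was higher, and BMP2, BMP4 and VAX2 overlapped between the retinas with and without sucrose. The genes were chosen by name with their levels in these libraries already known, so their values are given as a description and no test between diets is attached to them. All 10 were found among the 25666 genes of the expression table, and all 10 passed the filter on low values that left 12204 of 19293 protein-coding genes, TBX5 and BMP4 through retinas without sucrose alone.

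In vertebrates the dorsal–ventral axis of the retina is set in the embryonic optic cup. BMP signals from the dorsal side switch on T-box transcription factors, which in turn favour the ephrin-B ligands, while the ventral side expresses the homeobox factor VAX2 and EphB receptors. The opposed gradients of ephrin-B and EphB guide ganglion cell axons to their targets in the brain, and enzymes that make or degrade retinoic acid are placed along the same axis. Many of these genes remain expressed in their own territory in the mature eye.

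All animals were wild-type male Chinchilla rabbits, 12 to 16 weeks old at the start, kept singly on a 12 h light and 12 h dark cycle and fed for 6 months. The normal diet (ND) was standard chow, the high-fat diet (HFD) added 10% lard and 0.5% cholesterol, the high-sucrose diet (HSD) added 40% sucrose, and the high-fat plus high-sucrose diet (HFSD) combined the lard (10%) and cholesterol (0.5%) with sucrose at 35%. RNA from 2 retinas per diet was sequenced. The labels do not say whether the 2 retinas of a diet came from separate animals, so that every p-value here measures only the spread between these libraries. The diets were compared to find what each adds to changes in the rabbit retina. The sources used here do not give which part of each retina was dissected, so that the position of the tissue and the diet cannot be told apart for genes that differ along the axis. Nor can fewer cells of a type and less RNA per cell be told apart in bulk tissue.

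The values were FPKM, the number of sequenced fragments per kilobase of transcript, scaled to library depth. The steps between low values gave back whole fragments for all 10 genes, and library depth by that route was 15764577 to 22785832 fragments. Rhodopsin, the rod photopigment, was at 18797 to 28422 FPKM in every library. In limma with Benjamini-Hochberg adjustment, 0.00819% of the tested genes passed an adjusted p of 0.05 in HFD against ND (1 gene), 0.0574% in HSD (7 genes), 0.0164% in HFSD (2 genes) and 0.344% with sucrose against without (42 genes). At an unadjusted p under 0.05 these counts were 526, 879, 985 and 2237. The HFD, HSD and HFSD comparisons share the same 2 ND retinas.

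Without added sucrose, TBX2 had the highest mean level of the 10 genes (54.0 ± 6.87 FPKM; s.d., n=4), followed by VAX2 (32.7 ± 8.45), EFNB2 (19.5 ± 5.42) and NR2F2 (13.5 ± 3.56). The values of VAX2, EFNB2 and NR2F2 overlapped with those of the next gene in this order. EFNB1 (9.15 ± 0.751), TBX3 (9.14 ± 2.88), TBX5 (7.85 ± 3.70) and EPHB2 (7.0 ± 0.810) came next and lay within their spread of each other, except that no EPHB2 value reached the lowest of EFNB1. BMP2 (2.80 ± 0.460) and BMP4 (1.14 ± 0.406) were lowest. With added sucrose, TBX2 (45.2 ± 1.12) and VAX2 (38.6 ± 5.83) still led, the highest VAX2 value (43.3) lying just under the lowest of TBX2 (44.1). Each EPHB2 value (9.45 ± 1.09) now stood above each value of EFNB1 (6.84 ± 0.830) and TBX3 (5.26 ± 0.840), while EFNB2 (3.85 ± 1.97) and NR2F2 (2.35 ± 1.06) followed. BMP2 (1.84 ± 0.916) overlapped with NR2F2, BMP4 was at 0.821 ± 0.105, and TBX5 (0.174 ± 0.259) moved to last place. The plot of the 10 genes in each retina shows these levels.

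**Figure D1:**
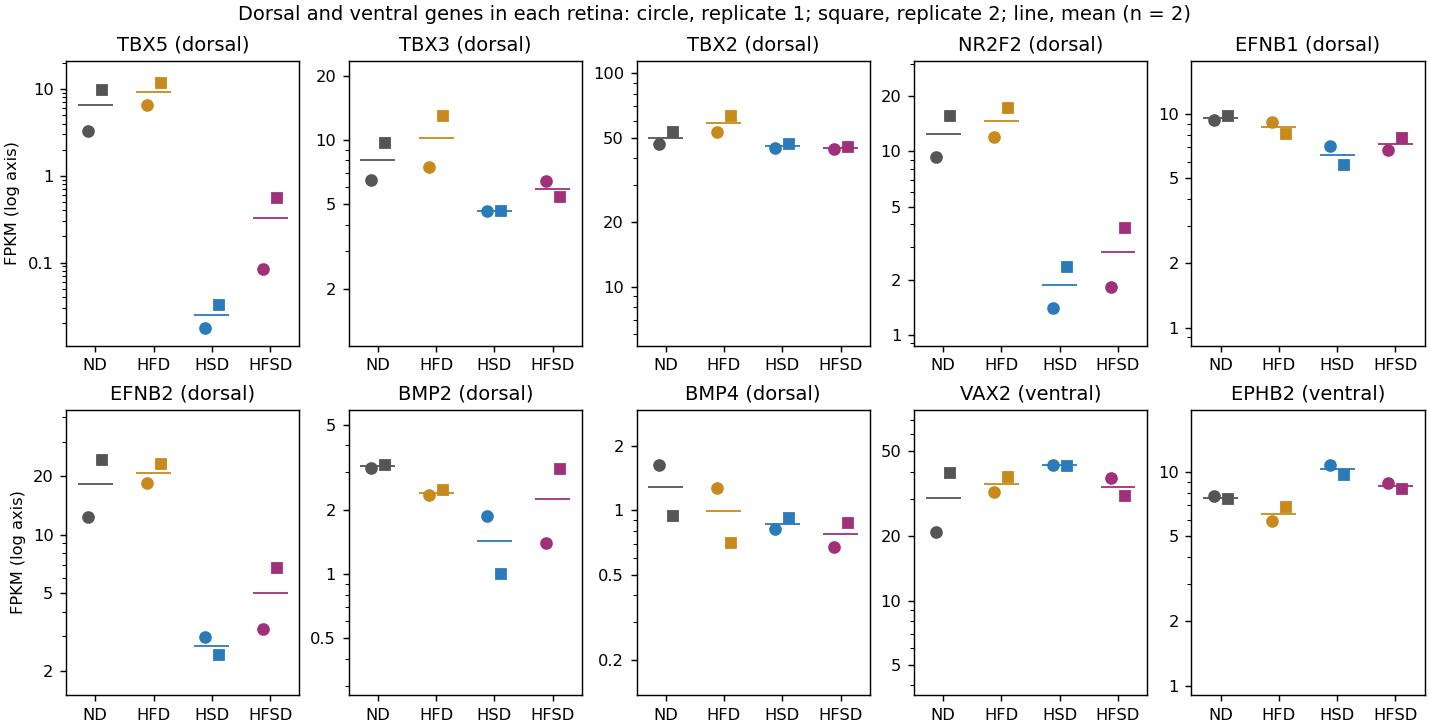
FPKM on a log axis for each of the 10 genes in the 8 retinas, by diet; the circle is replicate 1, the square replicate 2 and the line their mean (n=2). TBX5, NR2F2 and EFNB2 form separate low groups in HSD and HFSD, while TBX2 stays between 44.1 and 63.4 FPKM in all 8 retinas.

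TBX5, the T-box factor restricted to the most dorsal retina, had levels of 3.27 and 9.85 FPKM on ND and of 6.61 and 11.7 on HFD. On HSD its levels were 0.0175 and 0.0320, and those on HFSD were 0.0848 and 0.560. Every retina without sucrose lay above every retina with it, and HFSD replicate 2 stood apart from the other 3 sucrose retinas. In whole fragments these values were 232, 632, 478 and 771 without sucrose against 1, 2, 7 and 32 with it. The rate of TBX5 fragments was 255 times higher in ND than in HSD, with an exact 95% interval of 87.0 to 1240 that rests on 864 against 3 fragments, and 47.7 times higher without than with sucrose (35.2 to 66.4; 2113 against 42 fragments). HFSD replicate 2 held 32 of those 42 fragments, and without it the ratio was 156 (84.8 to 326). These intervals cover counting error only, since fragments were pooled over libraries and the spread between retinas was left out. Duplicate fragments were not marked by molecular identifiers, so counting error itself may be larger. As TBX5 was chosen with its values known, the intervals describe these libraries and are no test between diets. On the log2(FPKM + 1) scale the difference between sucrose and no sucrose was -2.82, which understates a gene this low: with a pseudocount of 0.1 in place of 1 it was -5.10.

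TBX3, the neighbouring T-box gene, which represses transcription in the dorsal retina, was at 6.48 and 9.62 FPKM (ND), 7.47 and 13.0 (HFD), 4.62 and 4.62 (HSD) and 6.39 and 5.41 (HFSD). The groups did not overlap, but only narrowly: the lowest ND retina (6.48) and the highest HFSD retina (6.39) were next to each other. The ratio of means without over with sucrose was 1.74. TBX2, a T-box repressor also found in the dorsal retina, was at 46.8 and 52.8 (ND), 53.1 and 63.4 (HFD), 44.6 and 46.7 (HSD) and 44.1 and 45.2 (HFSD). Its ratio was 1.20, and the highest sucrose retina again lay just under the lowest of the others. The ratio of TBX5 means was 45.2, and 175 without HFSD replicate 2.

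In the RefSeq annotation of the rabbit, TBX5 and TBX3 lie next to each other, between RBM19 and MED13L. RBM19 was at 2.34 to 3.22 FPKM without and 2.27 to 3.44 with sucrose, a log2 difference of 0.02. MED13L was at 26.8 to 38.3 and 37.5 to 40.4, a log2 difference of 0.24. Neither of these flanking genes was lower in the retinas with sucrose.

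NR2F2, the orphan nuclear receptor also called COUP-TFII and a marker of dorsal retina, was at 9.30 and 15.5 FPKM in ND and at 12.1 and 17.3 in HFD. It was at 1.39 and 2.34 in HSD and at 1.83 and 3.82 in HFSD. The groups were well separated, with a ratio of means of 5.77 and a log2 difference of -2.14. An annotated long non-coding gene overlaps NR2F2, and the sources used here do not state whether fragments were counted by strand, so reads from these overlapping genes may not be told apart. Its other neighbours MCTP2 and ARRDC4 had log2 differences of 0.05 and 0.21. ARRDC4 was higher in every sucrose retina, at 1.31 to 1.56 without and 1.59 to 2.23 with sucrose, as 6.39% of tested genes were.

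EFNB2, the ephrin-B2 ligand that repels EphB-bearing axons, was at 12.3 and 24.2 FPKM (ND), 18.4 and 23.1 (HFD), 2.98 and 2.40 (HSD) and 3.26 and 6.76 (HFSD). The lowest value without sucrose was above the highest with it, and the ratio of means was 5.06. EFNB1, the ephrin-B1 ligand of the same family, was at 9.41 and 9.85 (ND), 9.24 and 8.09 (HFD), 7.08 and 5.75 (HSD) and 6.79 and 7.74 (HFSD). It too did not overlap between the groups, at a ratio of only 1.34. The ventral receptor for these ligands, EPHB2, was at 7.75 and 7.45 (ND), 5.91 and 6.89 (HFD), 10.8 and 9.74 (HSD) and 8.85 and 8.38 (HFSD). It was the gene of the 10 that was higher in all 4 retinas with sucrose than in all 4 without, with a ratio of means, sucrose over none, of 1.35. In the annotation, PJA1 lies beside EFNB1 and was likewise lower with sucrose, at 6.56 to 8.25 without and 4.62 to 5.66 with it. C1QB lies beside EPHB2 and differed in the opposite direction from it, at 2.45 to 3.54 without and 1.34 to 1.88 with sucrose. The other neighbour of EFNB1, STARD8, and the neighbour of EFNB2, ARGLU1, overlapped between the groups, with log2 differences of -0.15 and 0.15.

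VAX2, the homeobox factor that specifies ventral retina, was at 20.9 and 39.6 FPKM (ND), 32.3 and 37.9 (HFD), 43.3 and 42.8 (HSD) and 37.6 and 30.8 (HFSD). Both HSD retinas were above all others, but HFSD overlapped with ND and HFD, and the ratio of sucrose over none was 1.18. BMP2, a secreted ligand of the dorsal retina, was at 3.13 and 3.25 (ND), 2.33 and 2.48 (HFD), 1.87 and 0.995 (HSD) and 1.40 and 3.11 (HFSD). HFSD replicate 2 sat among the retinas without sucrose, and each BMP2 value rested on 14 to 50 fragments. BMP4, the ligand that induces TBX5 in the embryo, was at 1.64 and 0.941 (ND), 1.27 and 0.708 (HFD), 0.819 and 0.918 (HSD) and 0.677 and 0.871 (HFSD). Its groups overlapped and its values rested on 31 to 77 fragments.

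The study's own rule called a gene changed where the mean FPKM of a diet plus 1, over that of ND plus 1, was above 1.54 or below 0.65. In HFD, 0 of the 10 genes were past either limit (0.809% of all protein-coding genes were past the lower and 0.949% past the upper). In HSD and HFSD, 0 were past the upper limit (1.53% and 1.03% of all genes). In HSD, 5 of 10 were past the lower limit (2.42% of all genes): TBX5 at 0.136, EFNB2 at 0.192, NR2F2 at 0.214, BMP2 at 0.580 and TBX3 at 0.621. In HFSD, 3 of 10 were past it (2.4% of all genes): TBX5 at 0.175, NR2F2 at 0.285 and EFNB2 at 0.313. These genes were chosen on the same contrasts, and nothing is read from their excess over the background. The shares of all genes were computed here, and the paper reports fewer changed genes in each diet.

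Both HSD retinas lay below both ND retinas for all 8 dorsal genes, as for 19.7% of tested genes, and both lay above for VAX2 and EPHB2, as for 19.3%. In HFSD both retinas again lay below ND for all 8 dorsal genes (20.6% of tested genes) and above ND for EPHB2 (21.6%). In HFD, EFNB1, BMP2 and EPHB2 lay below both ND retinas (13.3%) and TBX2 above (12.5%). Over all 8 retinas, 6 genes were lower in every sucrose retina than in every other (6.48% of tested genes) and EPHB2 was higher in every one (6.39%). When each library in turn was left out, the number that did not overlap with the sucrose retinas lower was 6 or 7, with BMP4 added without HFD replicate 2 and BMP2 added without HFSD replicate 2. The share of tested genes with that pattern was then 7.74% to 11.8%, since fewer libraries have to be separated.

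**Figure D2:**
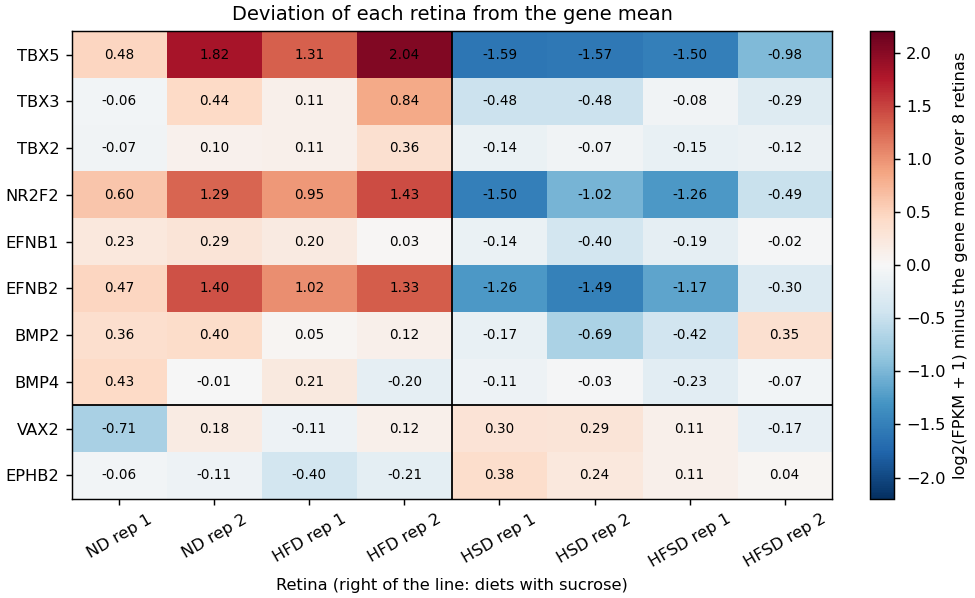
Log2(FPKM + 1) of each gene (rows) in each retina (columns) minus the mean of that gene over the 8 retinas, with the value printed in each cell. The 4 columns with added sucrose are low in the rows of TBX5, NR2F2 and EFNB2, and high in the row of EPHB2.

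Some of the 10 genes ordered the retinas within one kind of diet alike. Without sucrose, TBX5, TBX3 and NR2F2 had the order ND replicate 1, HFD replicate 1, ND replicate 2 and HFD replicate 2 from lowest to highest, and EFNB2, VAX2 and ALDH1A1 had the same order with the last 2 exchanged. ND replicate 1 was the lowest of the 4 for 6 of the 10 genes, 5 of them dorsal and the sixth VAX2, and the highest for BMP4 and EPHB2. An HFD retina was lowest for EFNB1, BMP2, BMP4 and EPHB2. ND replicate 1 was also the retina with the highest GFAP (524 FPKM, against 12.1 in ND replicate 2) and the highest MBP (252 against 6.55), markers of astrocytes and of myelin. With sucrose, HFSD replicate 2 was highest for the 5 dorsal genes TBX5, NR2F2, EFNB1, EFNB2 and BMP2 and lowest for VAX2 and EPHB2. HFSD replicate 2 was likewise the highest of the 4 sucrose retinas in GFAP (69.5) and MBP (41.9), against 3.05 and 4.34 at most in the others. The rest of the astrocyte list did not follow GFAP throughout: S100B was highest in HFD replicate 1 (738 FPKM) without sucrose and in HSD replicate 1 (471) with it, ALDH1L1 was highest in HFD replicate 1 (5.84) and HFSD replicate 1 (3.77), and the summed list was highest in ND replicate 1 (1114) and HSD replicate 1 (476.2). The summed myelin list was highest in the same retinas as MBP (637.7 and 134.1). The part of these markers in the levels of the dorsal genes was not tested.

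Ratios of 2 genes within a retina, a dorsal over a ventral gene, do not depend on library depth and are listed as a description. TBX5 over VAX2 was 0.157 and 0.249 (ND), 0.205 and 0.308 (HFD), 0.000404 and 0.000748 (HSD) and 0.00225 and 0.0182 (HFSD). The lowest ratio without sucrose was 8.62 times the highest with it. EFNB2 over EPHB2 was 1.58 and 3.25 (ND), 3.11 and 3.35 (HFD), 0.275 and 0.247 (HSD) and 0.368 and 0.807 (HFSD). The FPKM of the ligand gene thus exceeded that of the receptor gene in each retina without sucrose and was below it in each retina with sucrose. These are RNA levels, and protein was not measured for either gene. EFNB1 over EPHB2 crossed 1 in the same way, from 1.17 to 1.56 without sucrose down to 0.590 to 0.924 with it. Of 2 enzymes that make retinoic acid on opposite sides of the retina, the dorsal ALDH1A1 over the ventral ALDH1A3 was 2.04 and 348 (ND), 9.45 and 22.8 (HFD), 0.0976 and 0.273 (HSD) and 0.192 and 0.983 (HFSD), again without overlap. FPKM is scaled by transcript length, so these ratios compare levels per length.

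**Figure D3:**
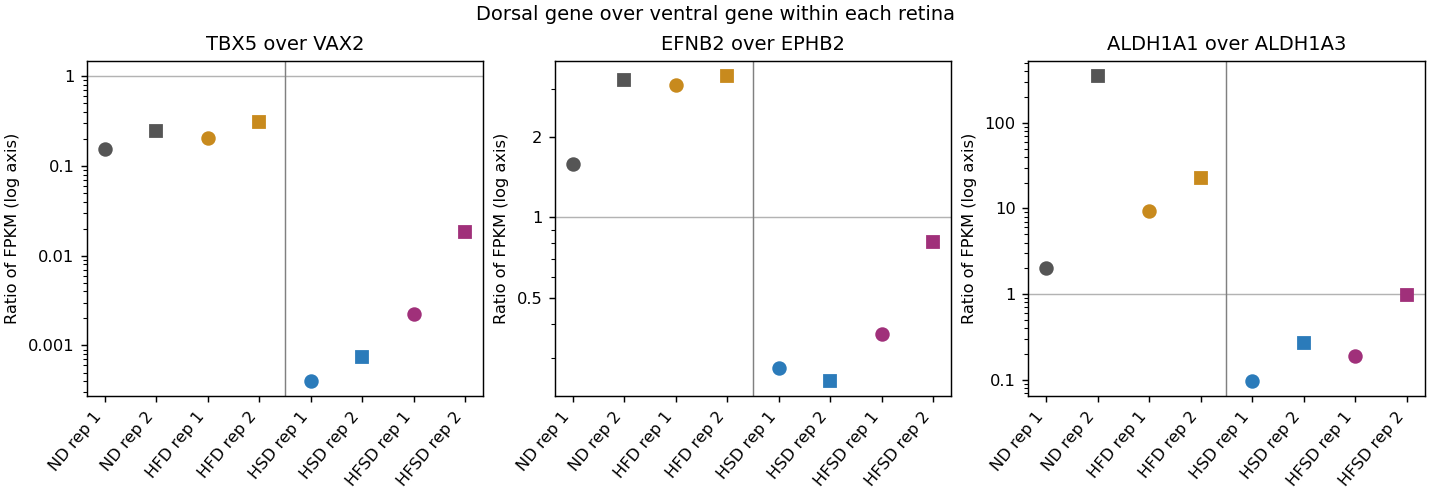
Ratio of FPKM on a log axis of a dorsal over a ventral gene in each retina (TBX5 over VAX2, EFNB2 over EPHB2, ALDH1A1 over ALDH1A3), with the 8 retinas along the horizontal axis. In each panel the 4 retinas without sucrose lie above the 4 with it, and the retina with sucrose nearest to them is HFSD replicate 2.

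Of 78 related genes in 7 lists, 61 were found and 42 passed the filter. Of the others, 19 were found below the filter and 17 are not analysed here. In limma with Benjamini-Hochberg adjustment over all tested genes, 0 were called in HFD, 1 in HSD (OPN1SW), 0 in HFSD and 2 with sucrose against without (CYP26B1 and OPN1SW). Of all tested genes, 0.00819%, 0.0574%, 0.0164% and 0.344% were called in these comparisons. A model with 2 groups, sucrose and none, called 5, adding ALDH1A1, ACVR2A and BAMBI, where 1.16% of all tested genes passed (141 genes). The lists were drawn up with earlier results known and give no independent support. At an unadjusted p under 0.05 the counts were 4 in HFD, 9 in HSD, 10 in HFSD and 19 with sucrose, where 4.31%, 7.2%, 8.07% and 18.3% of all tested genes passed that limit.

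The enzymes of retinoic acid, which is made and degraded in separate zones along the dorsal–ventral axis, had 5 of 6 genes tested, 3 higher and 2 lower with sucrose (median log2 difference 0.12). ALDH1A1, the synthetic enzyme of the dorsal retina, was at 13.8 and 67.5 FPKM (ND), 47.8 and 53.4 (HFD), 1.16 and 3.79 (HSD) and 1.68 and 5.52 (HFSD). The groups did not overlap and the log2 difference was -3.47 ± 0.521 (SE), with an adjusted p of 0.0570 in limma, which ranged from 0.0173 to 0.178 over 12 other settings. ALDH1A3, the synthetic enzyme of the ventral retina, was at 6.76 and 0.194 (ND), 5.06 and 2.34 (HFD), 11.9 and 13.9 (HSD) and 8.76 and 5.61 (HFSD), with a log2 difference of 1.51 ± 0.540 and an adjusted p of 0.213 in limma. ND replicate 1 overlapped with HFSD replicate 2, and the order of the 4 retinas without sucrose was the exact reverse of that of ALDH1A1. CYP26B1, which degrades retinoic acid, fell in the sucrose retinas: it was at 2.56 to 4.23 without and 0.511 to 0.958 with sucrose, a log2 difference of -1.22 ± 0.174 with an adjusted p of 0.0452 in limma. The CYP26B1 call was lost when any of the 8 libraries was left out (adjusted p 0.0571 to 0.175 in limma) and with a pseudocount of 0.1 (0.0503 in limma), with its sign kept. CYP26C1, of the same function, was past the lower fold limit in HFD, with 3.20 and 0.469 in ND against 0.512 and 0.210. CYP26A1, the third degrading enzyme, overlapped between the groups (2.01 to 10.3 and 3.96 to 5.20 FPKM).

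Among the other dorsal–ventral genes, 6 of 10 were tested, 3 higher and 3 lower (median -0.18). SMOC1, a BMP antagonist, was at 48.6 to 75.1 without and 40.8 to 45.8 with sucrose, and ZIC2, a ventral transcription factor, at 2.07 to 4.38 and 0.780 to 2.03. Both were lower in all sucrose retinas, with adjusted p of 0.158 and 0.145 in limma. PAX2, a ventral and optic stalk factor also used here as an astrocyte marker, was under the filter, at 2.58 in ND replicate 1 and 0.0191 in ND replicate 2. It was listed at 0 in 3 sucrose retinas and at 0.193 in HFSD replicate 2.

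Of the nasal–temporal genes, which pattern the other axis of the retina, 4 of 10 were tested and 4 were higher with sucrose (median 0.32), with 0 called and 3 of 4 at an unadjusted p under 0.05 (18.3% of all tested genes). EFNA5, an ephrin-A ligand, was at 6.34 and 2.59 in ND, 3.11 and 1.86 in HFD, and 5.48 to 6.74 with sucrose (adjusted p 0.177 in limma), and it was past the lower fold limit in HFD at 0.638. EPHA5, an ephrin-A receptor, was higher in all sucrose retinas, 20.5 to 22.0 against 14.6 to 19.9, while its relative EPHA4 overlapped (12.4 to 16.2 against 10.1 to 14.3). Among the other ephrin-B and EphB genes, 5 of 5 were tested, 1 higher and 4 lower (median -0.16). EFNB3 was at 2.01 to 3.37 without and 4.25 to 4.89 with sucrose (adjusted p 0.0877 in limma), opposite in sign to EFNB1 and EFNB2, and EPHB3 was at 1.36 to 1.78 and 0.687 to 1.21 (adjusted p 0.184 in limma), opposite in sign to EPHB2. EPHB6, a kinase-inactive receptor, was at 5.04 to 7.55 and 4.62 to 6.15. The direction of EFNB2 and EPHB2 was thus not that of every ephrin-B ligand or EphB receptor.

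The other T-box genes had 3 of 14 tested, 2 higher and 1 lower (median 0.35), with 0 called and 2 of 3 at an unadjusted p under 0.05, beside the same 18.3%. MGA, a large repressor with a T-box, was at 6.31 to 10.4 FPKM without and 10.7 to 12.7 with sucrose (adjusted p 0.266 in limma), and TBX21 overlapped (0.655 to 2.36 and 0.843 to 1.48). TBX6, a mesodermal T-box factor, was at 4.41 and 5.94 (ND), 6.38 and 8.86 (HFD), 9.24 and 10.5 (HSD) and 8.54 and 6.53 (HFSD). TBX15 was listed at 0 in 7 retinas and at 3.30 in HSD replicate 2, the retina whose summed muscle markers were 464.5 FPKM against at most 4.71 in the other 7.

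The other BMP pathway genes had 23 of 36 tested, 11 higher and 12 lower with sucrose, with a median of -0.0029 beside -0.0073 over all tested genes, with 0 called and 7 of 23 at an unadjusted p under 0.05 (18.3% of all tested genes). BAMBI, a decoy receptor that damps BMP signals and is itself induced by them, was at 23.8 to 31.8 without and 10.1 to 15.6 with sucrose, with a log2 difference of -1.04 ± 0.152 and an adjusted p of 0.0501 in limma (0.0136 to 0.145 over 12 other settings). ACVR2A, an activin and BMP receptor, was at 9.28 to 11.4 and 13.5 to 14.4 (adjusted p 0.0921 in limma), and SOSTDC1, an antagonist, was at 1.35 to 2.19 and 0.135 to 1.21. ID1, ID2 and ID3, direct BMP targets, were past the upper fold limit in HFD, at 2.68, 2.07 and 2.68, and past the lower limit in HFSD, at 0.464, 0.592 and 0.388, and ID2 was past the upper limit in HSD as well, at 1.66. ID1 was at 44.8 and 53.1 (ND), 84.7 and 180.7 (HFD), 25.3 and 70.6 (HSD) and 20.1 and 24.3 (HFSD), and HSD replicate 2 lay among the retinas without sucrose. SMAD4, the shared effector of the pathway, was at 23.5 to 26.0 and 24.9 to 27.1, and the receptors BMPR1A (5.99 to 6.92 and 5.84 to 6.89) and BMPR1B (6.05 to 10.3 and 7.32 to 9.88) overlapped between the groups.

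OPN1SW, the short-wavelength opsin, whose cones are unevenly spread along the dorsal–ventral axis in many mammals, rose in HSD and with sucrose. It was at 69.1 and 67.6 FPKM (ND), 114 and 80.9 (HFD), 255 and 290 (HSD) and 276 and 208.7 (HFSD), with no overlap. The log2 difference was 1.98 ± 0.198 in HSD (adjusted p 0.0367 in limma) and 1.64 ± 0.140 with sucrose against without (adjusted p 0.00980 in limma). Without HSD replicate 2 these adjusted p became 0.321 and 0.0678, and the HSD call was also lost without HSD replicate 1 (0.0820), ND replicate 1 (0.125) or ND replicate 2 (0.0942), all in limma. The cone markers, which do not include this opsin, summed to 604.9 to 900.1 FPKM without and 931.1 to 1066 with sucrose, all 5 tested were higher (5 of 5 at an unadjusted p under 0.05, beside 18.3% of all tested genes), and 1 of them, PDE6C, passed the test at a log2 difference of 0.71 (adjusted p 0.0311 in limma), as 0.344% of all tested genes did. That call held without either ND replicate and was lost without each of the other 6 libraries (0.0612 to 0.115 in limma). The part of the cone number in the OPN1SW difference was not tested.

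**Figure D4:**
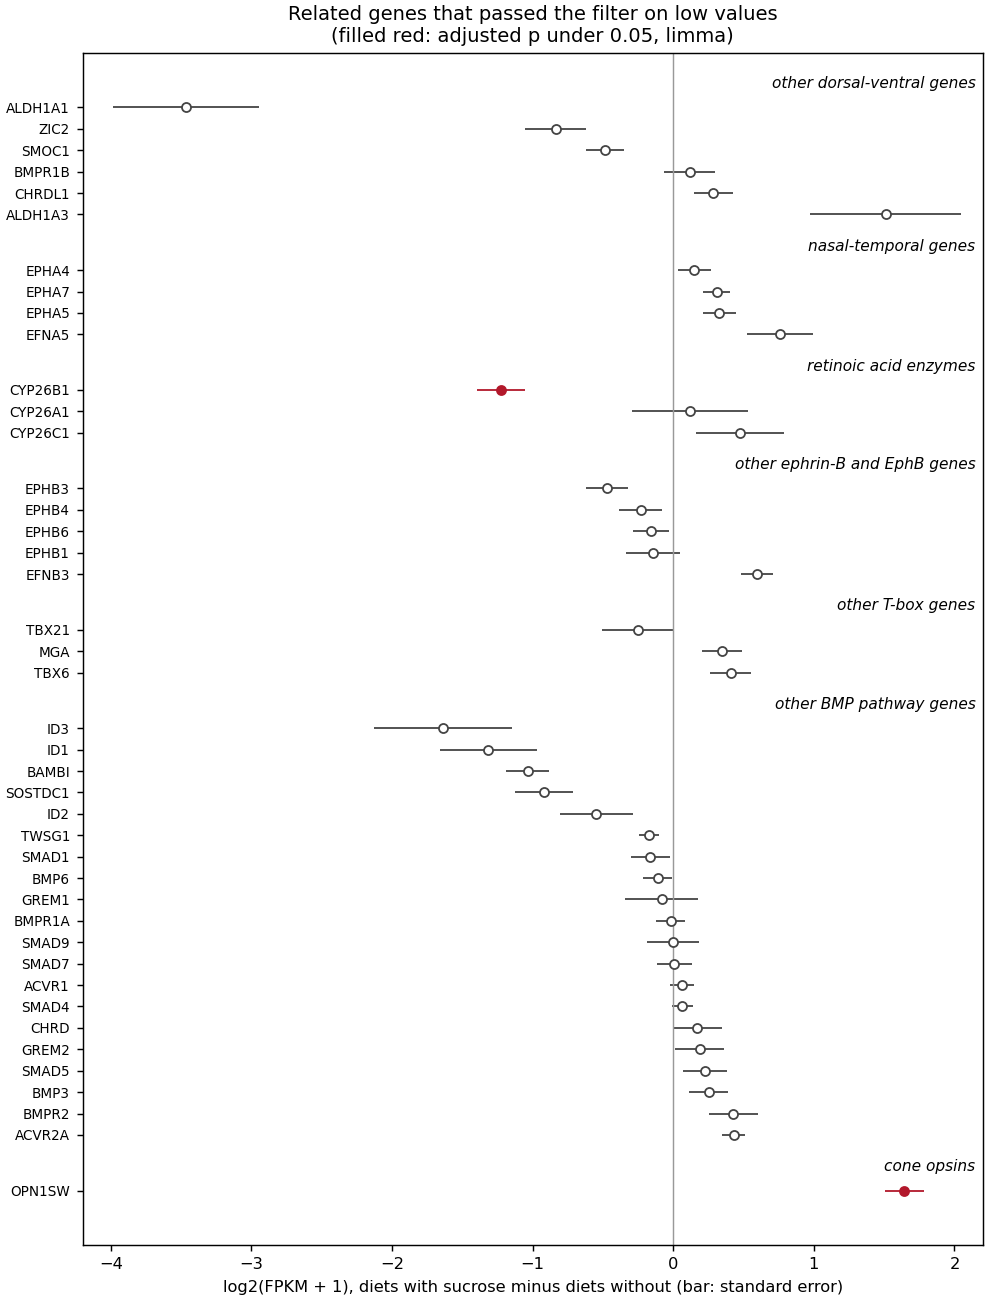
Log2 difference in log2(FPKM + 1), sucrose minus no sucrose, with bars of 1 SE from limma, for the related genes by list; filled red points passed an adjusted p of 0.05. CYP26B1 (-1.22) and OPN1SW (1.64) passed, and ALDH1A1 had the lowest value (-3.47).

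The genes whose profile over the 8 retinas was most like that of TBX5, by the root mean square difference of centred log2(FPKM + 1) among 9867 candidates, were PXYLP1 (0.418), S100A1 (0.456), ITIH2 (0.489), ALDH1A1 (0.538) and SRGN (0.551). Of the 10 genes, NR2F2 (0.421) and EFNB2 (0.426) were as near to TBX5, and the others lay at 1.12 to 1.69. The 10 genes were chosen with these values known, so this nearness is a description only. It also depends on the pseudocount of 1. With 0.1, the log2 difference with sucrose was -5.10 for TBX5, against -2.53 for NR2F2 and -2.38 for EFNB2. The genes most like VAX2 were PRSS23 (0.081), RARG (0.111), GPR75 (0.135), SPTLC3 (0.139) and GLDC (0.148), with EPHB2 at 0.307. The measure is in log2 units, and a gene that hardly varies is near VAX2 for that reason.

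Summed markers of the retinal cell types and of other tissue also differed between the retinas. Of 16 marker lists (101 of 112 genes found), the summed Müller glia markers were 3463 to 4684 FPKM without and 2541 to 2705 with sucrose, with no overlap. Of the 7 genes of that sum, 3 were lower in every sucrose retina (GLUL, CLU and RLBP1), as 6.48% of all tested genes were. GLUL was the most abundant, at 1489 to 2127 and 721.7 to 889.7, and SLC1A3 and DKK3 had log2 differences of -0.01 and 0.06. Astrocyte markers summed to 379.5 to 1114 and 234.2 to 476.2, and myelin markers to 79.49 to 637.7 and 33.21 to 134.1, each with overlap. Pigment epithelium markers, led by TTR and RPE65, had lower sums in every diet other than ND, at 321.4 and 246.8 (ND), 85.06 and 50.12 (HFD), 48.36 and 39.09 (HSD) and 71.66 and 27.11 (HFSD). MITF, TYR and BEST1 of that list overlapped between ND and HFD. In limma, 0 genes of the Müller glia, astrocyte, myelin and pigment epithelium lists passed with sucrose against without, and 3 of 7, 1 of 3, 5 of 6 and 7 of 8 had an unadjusted p under 0.05, beside 18.3% of all tested genes. The model with 2 groups called GLUL (adjusted p 0.0136 in limma) and CLU (0.0358) and 0 others of these 4 lists. That model called 1.16% of all tested genes. Rod markers (28300 to 37330 and 26840 to 30700) and ganglion cell markers (524.8 to 835.4 and 501.3 to 837.2) overlapped. The part of any of these markers in the levels of the dorsal genes was not tested.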

How the data were processed

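RNA of rabbit retinas was sequenced from Illumina TruSeq libraries, with 2 libraries for each of 4 diets, and the replicate numbers came from the labels. The deposited values were FPKM per gene, which the authors made from reads; the submitters' processing notes name FastQC and TopHat2, without versions. Per the study's methods, poor 5′ ends were trimmed, up to 2 mismatches were allowed, multiply mapped reads were dropped, and FPKM came from an R script of the authors. The genome build and the use of strand are not given in the sources used here. Overlapping genes may therefore share reads, and genes with near-identical copies lose them. Whole fragments were recovered from the steps between FPKM values (tolerance 0.01), which gave depths of 15764577 to 22785832 fragments and a step of 0.0439 to 0.0634 FPKM for 1 fragment on a gene of 1 kb. These fragments served only for the counting intervals and not for a test over all genes.

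From the FPKM, 12204 of 19293 protein-coding genes, those reaching 1 FPKM in 2 or more libraries, were fitted on log2(FPKM + 1) by limma 3.58.1 in R 4.3.3, with a trend and 4 groups in 1 model, and p-values were adjusted by Benjamini-Hochberg over all tested genes (threshold 0.05). The fit was tested on simulated data with 200 of 12204 genes changed by a log2 difference of 2 in HSD against ND. Of these, 196 (98%) were recovered, with 17 false calls. The changed genes were drawn from those above a floor on mean level, and the noise was independent and normal. The share recovered thus belongs to this setting, and not to the real retinas or to genes near the floor. The fold rule of the study was applied to group means. Tables were handled with pandas 2.3.3, and intervals came from scipy 1.17.1. Gene order was taken from RefSeq (mOryCun1.1), for names only.

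The 10 genes and all lists were chosen with earlier results of these data known. Named in the text were the 10 genes, related genes past a limma or fold threshold, and the most abundant genes of each list past neither threshold (up to 2); EPHB3, ACVR2A and BMPR1A were added after their values were seen. Tables were recomputed with a pseudocount of 0.1, no filter, equal library medians, a replicate block, 2 groups in the model and each library left out. No sequences are shown.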

Additional observations from a re-analysis of the deposited data

Results flagged for a closer look

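Among the 4 retinas with added sucrose, TBX5 in HFSD replicate 2 stood apart: it was at 0.560 FPKM, against 0.0175 and 0.0320 in HSD and 0.0848 in HFSD replicate 1, and its gap to the nearest retina was 0.876 of the range. The value is listed because it lay far from the other 3, and as a description only, since the gene was chosen with its values known and the 4 retinas pool HSD and HFSD. It was 1 of 20 groups of 4 checked, 2 for each of the 10 genes, and chance alone picks about 1 in 20 groups. The same retina was highest of the 4 in NR2F2 (3.82 FPKM) and EFNB2 (6.76). Without it, the mean TBX5 level with sucrose was 0.0448 FPKM in place of 0.174.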

How the results depend on the processing

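The 10 genes kept the sign of their log2 difference between sucrose and no sucrose under each of 10 alternatives (100 values), of which 99 moved by less than the spread between replicates and 1, TBX5 with a pseudocount of 0.1, reached -5.10. VAX2 ranged from 0.04 to 0.49 and BMP4 from -0.38 to -0.10. The counts over all genes were less stable, and the cause was not tested. With sucrose, 42 genes passed in limma, against 8 with no filter (more genes tested) and 141 with 2 groups in the model, and from 4 (without HSD replicate 2) to 82 (without ND replicate 1) with a library left out. The HSD count of 7 was 3 with no filter and 3 to 12 with a library left out, the HFSD count of 2 was 2 to 11, and the HFD count of 1 was 2 to 2. The paper reports fewer changed genes in each diet than passed the fold limits here, and the reason was not tested. With a pseudocount of 0.1, genes past the fold limits numbered 1533 in HFD (339 with 1), 2311 in HSD (762) and 2145 in HFSD (661). With a library left out they numbered 629 to 777 in HFD, 881 to 1116 in HSD and 831 to 1200 in HFSD.

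Replicate numbers are not said to pair retinas across diets, and correlations of the deviations of same-numbered retinas were -0.165 to 0.0813. With the replicate block the count was 25 with sucrose, 4 in HFSD and 5 in HSD. With the block, the adjusted p in limma was 0.0814 for CYP26B1, 0.0584 for PDE6C and 0.0511 for OPN1SW in HSD, so these calls were lost, and 0.0151 for OPN1SW with sucrose. With no filter they were 0.0973, 0.0815, 0.114 and 0.0433. A diet left with 1 library is assumed to vary like the others. TBX5 with sucrose rested on 1 to 32 fragments per library, and 2 libraries per diet limit every estimate of spread.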
